A study of Mus musculus with 6 samples.

Results

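The genes described here encode mitochondrial ribosomal proteins. They were chosen by name alone, as every row of the deposited table whose symbol was Mrpl or Mrps followed by a number and at most 1 letter. The pattern found 78 of 24602 genes, and all 78 had a mean FPKM, a level per transcript length and sequencing depth, of 1 or more over the 6 libraries, the minimum for testing, which 8795 genes reached. Poly(A)-selected left-ventricular RNA from wild type mice had been sequenced 5 weeks after a sham operation (sham, 3 libraries) or after transverse aortic coarctation (TAC, 3 libraries), a surgical narrowing of the aorta that loads the left ventricle with pressure. No other allele or agent is named in the labels, and neither the age nor the sex of the mice was used here. The labels number the samples but do not tie each to its own mouse, so p-values measure the spread between these samples only, which may be technical.

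Mitochondria build their own proteins on a ribosome that descends from the bacterial one. Its RNAs come from mitochondrial DNA, whereas all its proteins are encoded in the nucleus, made in the cytosol and imported. It makes the few membrane subunits of the respiratory chain and of ATP synthase that mitochondrial DNA encodes, on which the energy supply of the beating heart depends. Some of its proteins have a counterpart in the bacterial ribosome and others were added in mitochondria. In people, inherited defects of MRPL3, MRPL44, MRPS14 and MRPS22 have been linked to hypertrophic cardiomyopathy.

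By these roles, 51 of the genes encode proteins of the large subunit, 30 with a bacterial counterpart and 21 added in mitochondria, and 26 encode proteins of the small subunit, 16 and 10. Mrps18a and Mrps30 carry small-subunit names but their proteins sit in the large subunit, and they are counted there. The remaining gene, Mrps36, was named as a ribosomal protein, and its product is now known as a component of the alpha-ketoglutarate dehydrogenase complex. The genes lie on 17 chromosomes, and 5 further records of the table are pseudogenes that carry the symbol of one of them, so reads could be divided between copies.

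The promoter sequences of 4 of the genes are shown. Mrpl50 and Mrpl33 were the only ones to pass the test with all libraries. Mrpl12 and Mrpl34 were chosen because each holds a motif that was searched for. Among genes with the NRF1 or the ETS motif in the stretch shown, they had the highest mean FPKM. The choice thus fixed in advance that Mrpl12 and Mrpl34 hold a motif. The stretches are the parts of the RefSeq windows (GRCm38.p6) upstream of the transcription start that lie outside any annotated exon, written 5′ to 3′ on the strand of the gene. Capitals mark a motif found by a letter search. They are chr4:49521094-49521175 on the minus strand for Mrpl50, chr5:31613789-31613938 on the plus strand for Mrpl33, chr11:120484463-120484612 on the plus strand for Mrpl12 and chr8:71464776-71464925 on the plus strand for Mrpl34.
Mrpl50: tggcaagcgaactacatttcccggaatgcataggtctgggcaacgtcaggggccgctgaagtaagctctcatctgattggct
Mrpl33: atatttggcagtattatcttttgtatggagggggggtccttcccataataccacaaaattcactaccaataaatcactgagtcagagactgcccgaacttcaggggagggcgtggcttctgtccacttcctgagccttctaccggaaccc
Mrpl12: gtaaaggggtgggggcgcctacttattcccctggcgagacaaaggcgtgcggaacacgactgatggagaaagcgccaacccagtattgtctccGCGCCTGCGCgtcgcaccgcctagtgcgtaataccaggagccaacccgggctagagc
Mrpl34: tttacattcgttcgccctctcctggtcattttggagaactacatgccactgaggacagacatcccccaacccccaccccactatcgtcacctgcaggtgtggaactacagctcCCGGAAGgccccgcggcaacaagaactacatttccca

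In Mrpl12 the capitals are a match, on the reverse strand, to the binding motif of NRF1, and in Mrpl34 a match to CCGGAAG, the core bound by ETS factors such as NRF2. NRF1 and NRF2 are known regulators of nuclear genes for mitochondrial proteins. RefSeq windows around a transcription start were found for 69 of the 78 genes, 75 windows in all. On either strand, 26 of the 75 windows (34.7%) held CCGGAAG, against 8.86% of 32851 windows of all genes. The NRF1 motif was present in 13 (17.3%, against 4.603%), and AAGATGGCG, the motif of YY1, in 8 (10.7%, against 1.40%). At least 1 of these motifs occurred in 41 windows (54.7%, against 13.6%). Of Mrpl50 and Mrpl33, 1 held the ETS motif in its window, outside the stretch shown. The median GC content of the windows was 58.7%, against 52.7% for all windows. All windows include those of genes that did not reach the minimum FPKM, which the 78 genes all reached. Shares over the windows of tested genes alone were not computed. A match describes the letters and does not show that a factor binds there.

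The levels of the 78 genes spanned a ratio of 120.3 in mean FPKM over the 6 libraries. The median was 17.3 FPKM, against 5.20 FPKM over all tested genes, with a median of 19.0 FPKM for the large and 10.2 FPKM for the small subunit. In the large subunit, the highest mean FPKM belonged to Mrpl12 (134 FPKM), Mrpl34 (114 FPKM) and Mrpl55 (105 FPKM). Mrpl12 encodes the stalk protein that contacts translation factors, and it also binds the mitochondrial RNA polymerase. In the small subunit they belonged to Mrps23 (121 FPKM), Mrps21 (63.9 FPKM) and Mrps34 (58.3 FPKM). The lowest were Mrpl47 (1.11 FPKM) and Mrpl1 (1.36 FPKM).

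The order depends on the length used. For all 78 genes the ratio of the deposited count to FPKM times all annotated exonic bases was within 1% of its median over the genes, so the deposited FPKM divides by every base that is exonic in any transcript, retained introns included. In 27 of the genes this length was more than 2 times the mean length of their transcripts in the basic set of the annotation. That set leaves out some of the transcripts whose exons are counted here. Mrpl33 is an example, with 7326 exonic bases and a mean transcript of 478 bases. It ranked 75 of 78 by FPKM and 37 when CPM, counts scaled to library size, were divided by kilobases of mean transcript. By the latter measure Mrps23 (197 CPM per kilobase) was highest, Mrpl12 (166 CPM per kilobase) ranked 4 and Mrpl47 (1.59 CPM per kilobase) stayed lowest. The Spearman correlation of both measures across the 78 genes was 0.88, given as a description. Comparisons between groups below use CPM scaled by TMM (trimmed mean of M values), which does not depend on length.

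Library totals ran from 64023153 to 69992502 estimated counts. The mitochondrial chromosome, which encodes what this ribosome translates, took 14.8% to 19.2% of the counts in sham and 22.6% to 29.2% in TAC. All 10 cardiomyocyte markers were detected in each library, with a summed level of 81870 to 96230 CPM in sham and of 82510, 87870 and 59480 CPM in TAC replicates 1 to 3. The 7 fibroblast markers summed to 310 to 461 CPM in sham and to 503, 471 and 1268 CPM in TAC, none of them at 0 in all libraries. Lymphocyte markers stayed between 0.916 and 2.40 CPM in sum. TAC replicate 3 was thus the library with the lowest cardiomyocyte and the highest fibroblast marker sum, although 3 cardiomyocyte markers, Ryr2, Ttn and Pln, were highest there. In bulk tissue, fewer cells of a type and less RNA per cell cannot be told apart.

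The comparison of sham and TAC asked which genes differ in the pressure-loaded ventricle. In edgeR's quasi-likelihood test with Benjamini-Hochberg adjustment over 8795 genes, 2 of the 78 genes, Mrpl50 and Mrpl33, were higher in TAC at an adjusted p under 0.05, against 4.71% of all tested genes called higher. None was lower, against 2.29% of all tested genes called lower, and 76 did not pass. In either direction 6.99% of all tested genes were called. At an unadjusted p under 0.05, 6 were higher and 3 lower in edgeR, against 16.2% and 11.9% of all tested genes. DESeq2 called 5 higher and 1 lower, against 11.7% and 7.02%. The median log2 fold change (TAC over sham) was -0.03, against -0.01 over all tested genes, and 45 values were below 0 and 33 above, a share close to the 50.8% of all tested genes below 0. Values ran from -0.60 for Mrpl37 to 0.92 for Mrpl1.

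**Figure D1:**
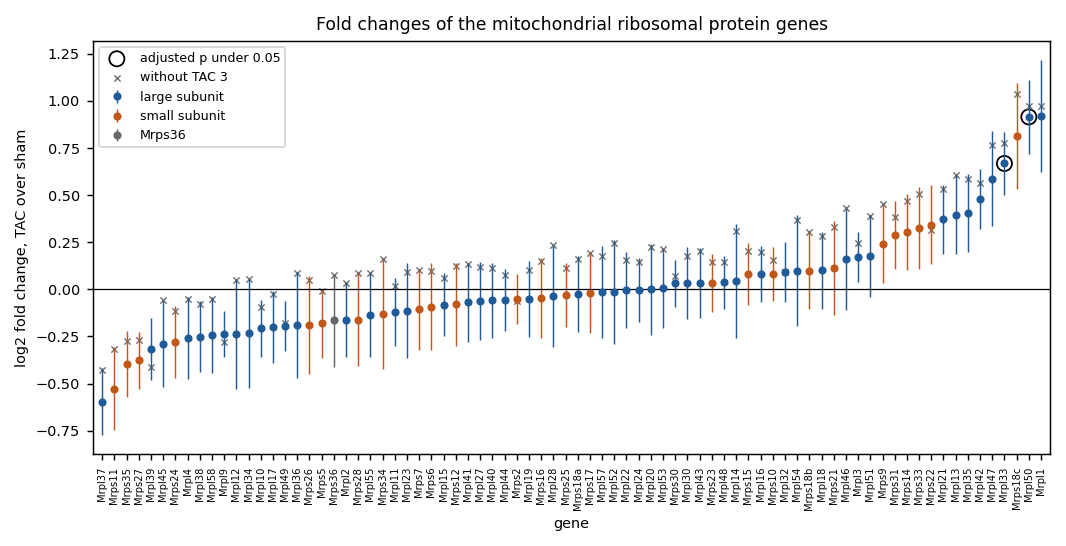
Log2 fold change (TAC over sham, vertical axis) of each of the 78 genes (horizontal axis, in order of the value), coloured by subunit, with bars of 1 standard error; crosses are values without TAC replicate 3, and rings mark an adjusted p under 0.05. Most values lie near 0, the rings are on Mrpl33 (0.67) and Mrpl50 (0.92), and 62 of the crosses lie above 0.

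Both genes that rose belong to the large subunit. Mrpl50 (chr4:49512596-49521093, minus strand) encodes a protein added in mitochondria. Its level was 6.13, 4.40 and 5.92 CPM in sham and 11.5, 10.1 and 9.48 CPM in TAC. All TAC libraries were above all sham libraries. The mean went from 5.48 ± 0.948 to 10.3 ± 1.02 CPM (SD, n = 3 each), a log2 fold change of 0.92 ± 0.20 (SE, adjusted p = 0.0358, edgeR). Mrpl33 (chr5:31596935-31664384, plus strand) encodes a small protein with a bacterial counterpart. It measured 13.4, 11.3 and 12.5 CPM in sham and 20.3, 22.1 and 16.7 CPM in TAC, again without overlap. Its mean went from 12.4 ± 1.09 to 19.7 ± 2.75 CPM (SD, n = 3 each), a log2 fold change of 0.67 ± 0.17 (SE, adjusted p = 0.0498, edgeR). These calls did not hold under every alternative: Mrpl50 passed in 7 of 17 (adjusted p from 0.000408 to 0.35) and Mrpl33 in 5 of 17 (adjusted p from 0.00369 to 0.385), and neither passed once trends with GC content and length were removed.

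Groups did not overlap for 10 of the 78 genes. For 4 (Mrpl1, Mrpl33, Mrpl42 and Mrpl50) every TAC library was above every sham library, against 17.7% of all tested genes, and for 6 (Mrpl9, Mrpl37, Mrpl49, Mrps11, Mrps27 and Mrps35) every TAC library was below, against 17.1%. Mrpl1, whose bacterial counterpart forms the stalk where spent tRNA leaves, measured 6.44, 2.84 and 3.85 CPM in sham and 7.86, 9.30 and 7.70 CPM in TAC. Its log2 fold change was 0.92 ± 0.30 (adjusted p = 0.0915, edgeR), the highest value of the 78 but not past the threshold with all libraries. It was called higher by DESeq2 (adjusted p = 0.024) and without sham replicate 1 (1.33 ± 0.25, adjusted p = 0.0406, edgeR). In the latter fit 3.35% of all tested genes were called higher. Mrpl42 measured 99.1, 76.4 and 76.0 CPM in sham and 122, 126 and 102 CPM in TAC. That gave a log2 fold change of 0.48 ± 0.16 (adjusted p = 0.0967, edgeR).

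The lowest value belonged to Mrpl37 (chr4:107055874-107066868, minus strand), a protein added to the large subunit in mitochondria. It measured 145, 167 and 159 CPM in sham and 117, 117 and 78.1 CPM in TAC. Its mean was 157 ± 11.1 CPM in sham and 104 ± 22.5 CPM in TAC (mean ± SD, n = 3 each), a log2 fold change of -0.60 ± 0.18 (adjusted p = 0.0769, edgeR). It was not called with all libraries in edgeR, and was called lower without TAC replicate 3 (-0.43 ± 0.11, adjusted p = 0.0337, edgeR), by DESeq2 (adjusted p = 0.0267) and by limma on log2(FPKM + 1) (adjusted p = 0.0396).

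In the small subunit no gene passed in edgeR, and at an unadjusted p under 0.05 there was 1 higher and 2 lower of 26, against the same 16.2% and 11.9% of all tested genes. The lowest was Mrps11, with a bacterial counterpart on the platform of the subunit, at 34.3, 44.4 and 37.8 CPM in sham and 30.9, 31.6 and 18.5 CPM in TAC. Its log2 fold change was -0.53 ± 0.22 (adjusted p = 0.164, edgeR). Mrps27, a mitochondrial addition that contains pentatricopeptide repeats, measured 93.7, 112 and 104 CPM in sham and 85.4, 86.3 and 67.0 CPM in TAC (-0.38 ± 0.15, adjusted p = 0.144, edgeR). Mrps35, another addition, measured 76.0, 79.8 and 102 CPM in sham and 72.7, 69.7 and 53.5 CPM in TAC (-0.40 ± 0.18, adjusted p = 0.18, edgeR). In all of these the groups were separate, and TAC replicate 3 was the lowest library.

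**Figure D2:**
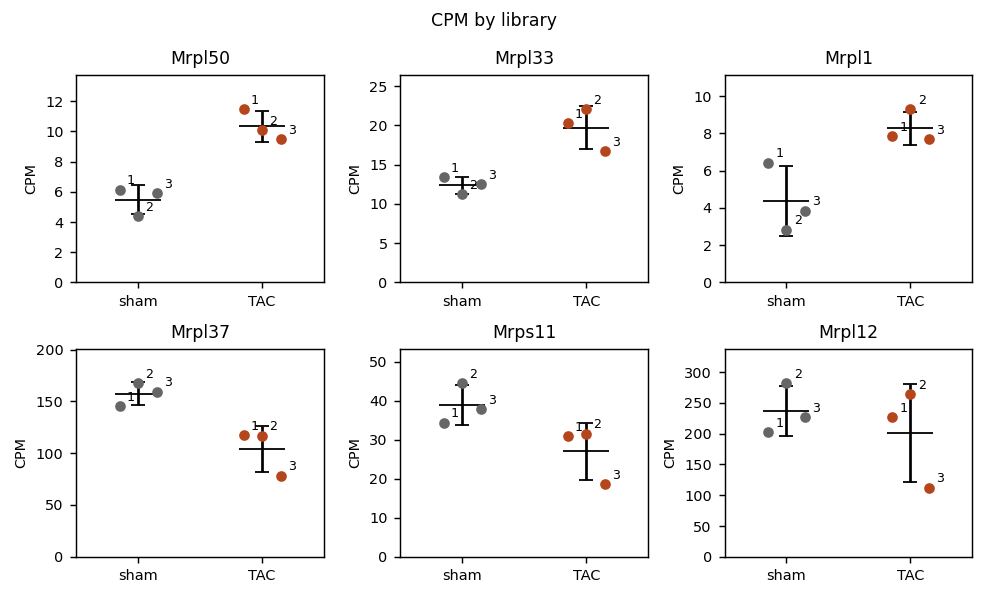
CPM by library for 6 of the genes: points are libraries, numbered by replicate, horizontal lines are group means and bars are 1 SD (n = 3 each), and every vertical axis starts at 0. The groups are apart in Mrpl50, Mrpl33, Mrpl1, Mrpl37 and Mrps11 and overlap in Mrpl12, where TAC replicate 3 (112 CPM) lies below the other TAC libraries (227 and 264 CPM).

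The most abundant genes did not pass the test. Mrpl12 measured 202.5, 282 and 227 CPM in sham and 227, 264 and 112 CPM in TAC (-0.24 ± 0.29, adjusted p = 0.647, edgeR). Mrps23 measured 177, 217 and 202 CPM in sham and 213, 226 and 172 CPM in TAC (0.04 ± 0.15, adjusted p = 0.908, edgeR). Mrpl34 was at 68.6, 90.1 and 81.7 CPM in sham and at 77.9, 88.8 and 37.7 CPM in TAC. The same layout, with TAC replicates 1 and 2 inside or above the sham range and replicate 3 below it, was seen in Mrpl55 (119, 137 and 73.5 CPM in TAC), Mrps34 (142, 160 and 67.0 CPM) and Mrps21 (55.5, 66.7 and 35.8 CPM). Sham libraries ranged from 106 to 131 CPM for Mrpl55, from 118 to 154 CPM for Mrps34 and from 37.4 to 57.0 CPM for Mrps21. Adjusted p-values of these 4 genes ran from 0.647 to 0.81 (edgeR).

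None of the 4 genes linked to hypertrophic cardiomyopathy passed. Mrpl3 measured 64.7, 68.4 and 71.4 CPM in sham and 76.1, 85.4 and 69.1 CPM in TAC (0.17 ± 0.13, adjusted p = 0.438, edgeR). Mrps22 measured 6.61, 5.71 and 9.11 CPM in sham and 9.27, 8.48 and 9.45 CPM in TAC (0.34 ± 0.21, adjusted p = 0.329, edgeR). The groups overlapped in both. Mrpl44, whose product resembles a ribonuclease, was at 47.1 ± 4.51 CPM in sham and 45.2 ± 7.57 CPM in TAC (mean ± SD, n = 3 each). Mrps14 was at 17.7 ± 2.49 and 21.8 ± 4.62 CPM (SD, n = 3 each). Neither difference passed the test (adjusted p = 0.856 and 0.371, edgeR).

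The 3 Mrps18 genes encode related proteins in different places of the ribosome, and their values differed. Mrps18a of the large subunit was at 91.8 ± 11.9 CPM in sham and 90.3 ± 22.4 CPM in TAC (mean ± SD, n = 3 each). Mrps18b of the small subunit was at 48.3 ± 3.94 and 51.8 ± 13.5 CPM (SD, n = 3 each). Mrps18c, the member with the bacterial counterpart, measured 5.68, 3.90 and 4.70 CPM in sham and 8.37, 11.2 and 5.55 CPM in TAC. Replicate 3 was the TAC library that fell within the sham range. Its log2 fold change was 0.81 ± 0.28 (adjusted p = 0.106, edgeR), and without TAC replicate 3 it was 1.04 ± 0.23 (adjusted p = 0.0192, edgeR). Of its exonic bases, 23.2% also belong to another record on the same strand. Mrps30 was at 40.5, 43.8 and 44.3 CPM in sham and 45.7, 44.4 and 41.4 CPM in TAC. Mrps36 measured 39.3, 51.4 and 49.4 CPM in sham and 45.3, 53.1 and 26.5 CPM in TAC (adjusted p = 0.716, edgeR).

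The feature most of the genes shared was a low level in TAC replicate 3. It was the lowest of the 6 libraries in 60 of the 78 genes, against 26.4% of all tested genes, and below both other TAC libraries in 73, against 41.8%. The median ratio of its level to the mean of the other TAC libraries was 0.654, against 1.01 over all tested genes. The ratio was smallest in Mrps34 (0.445), Mrpl34 (0.452) and Mrpl12 (0.456). The 5 genes in which this library was not the lowest of TAC were Mrpl9, Mrpl32, Mrpl39, Mrps2 and Mrps22. Relative to the sham mean, the median log2 level of the 78 genes was -0.14, 0.05 and 0.08 in the sham libraries and 0.09, 0.22 and -0.45 in TAC, while the median of all tested genes stayed within 0.02 of 0 in each library. The same library had the lowest cardiomyocyte marker sum (59480 CPM) and the highest fibroblast marker sum (1268 CPM), and their part in this result was not tested.

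**Figure D3:**
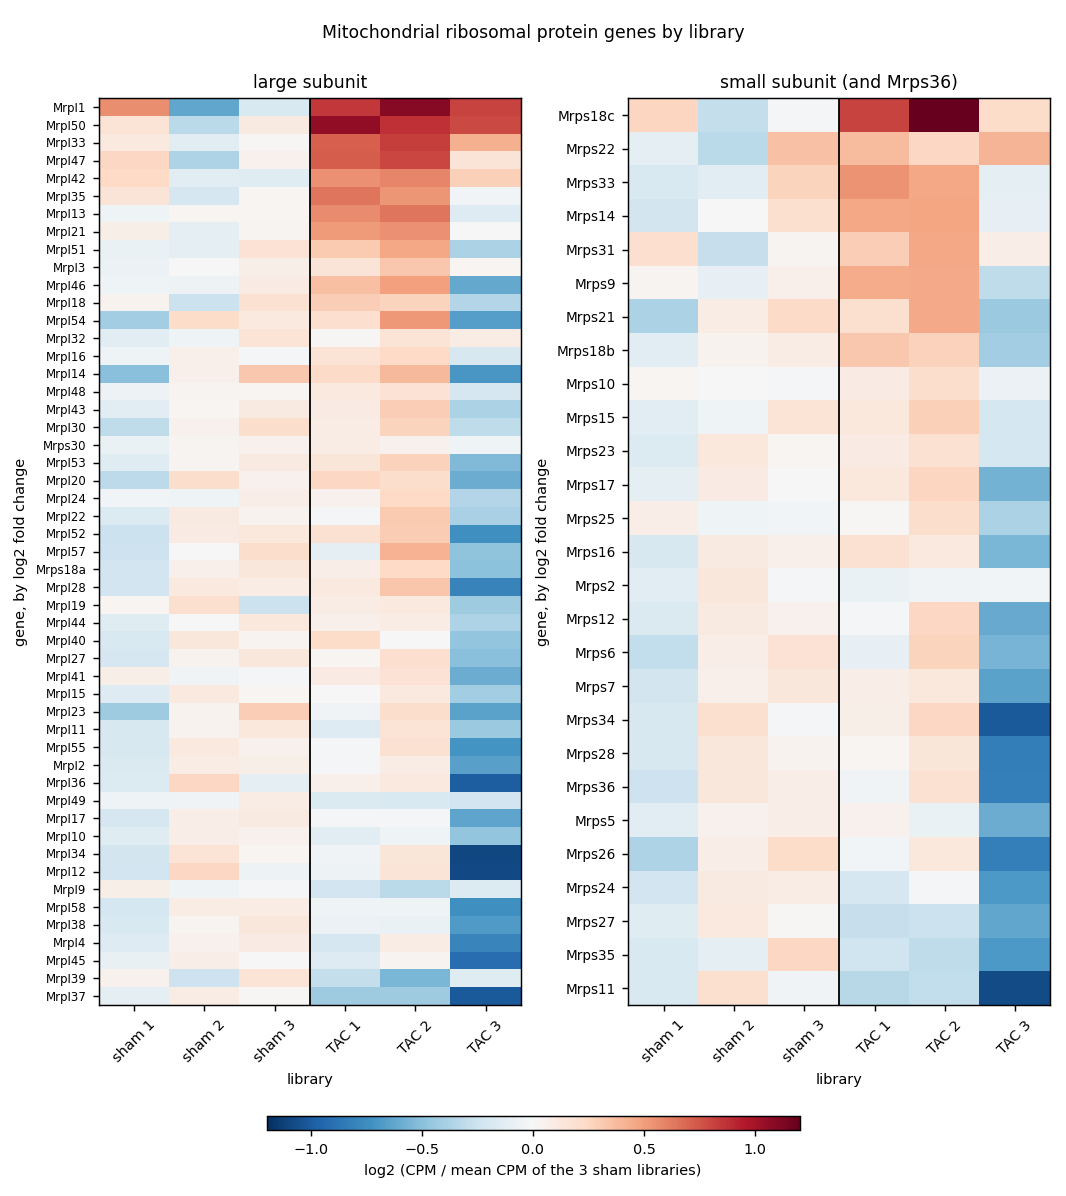
Log2 ratio of CPM to the mean of the 3 sham libraries, in colour, for each gene (rows, ordered by log2 fold change) in each library (columns), with the large subunit on the left and the small subunit and Mrps36 on the right. The TAC replicate 3 column is blue in most rows, with a median of -0.45 over the 78 genes, whereas the columns of TAC replicates 1 and 2 have medians of 0.09 and 0.22.

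In summed CPM, both subunits were lowest in TAC replicate 3 and highest in TAC replicate 2. The summed level of the large subunit was 2693, 3094 and 3122 CPM in sham and 3057, 3329 and 2078 CPM in TAC, and that of the small subunit 1190, 1398 and 1406 CPM in sham and 1384, 1470 and 946 CPM in TAC. The ratio of large to small was between 2.20 and 2.26 in all 6 libraries in CPM, and between 2.17 (TAC replicate 3) and 2.39 (sham replicate 1) in FPKM. Over all 78 genes, the sum was 4348 ± 368 CPM in sham and 4130 ± 953 CPM in TAC (mean ± SD, n = 3 each), a ratio of 0.95 that was 1.07 without TAC replicate 3. In FPKM, which is not scaled by TMM, the sum was 2236 ± 262 in sham and 1884 ± 371 in TAC (mean ± SD, n = 3 each), a ratio of 0.843, and of 0.935 without that replicate. The choice of scale thus moved the ratio of TAC to sham without replicate 3 from above to below 1. By subunit, the median log2 fold change was -0.01 for the large and -0.04 for the small, with 29 of 51 and 15 of 26 values below 0.

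**Figure D4:**
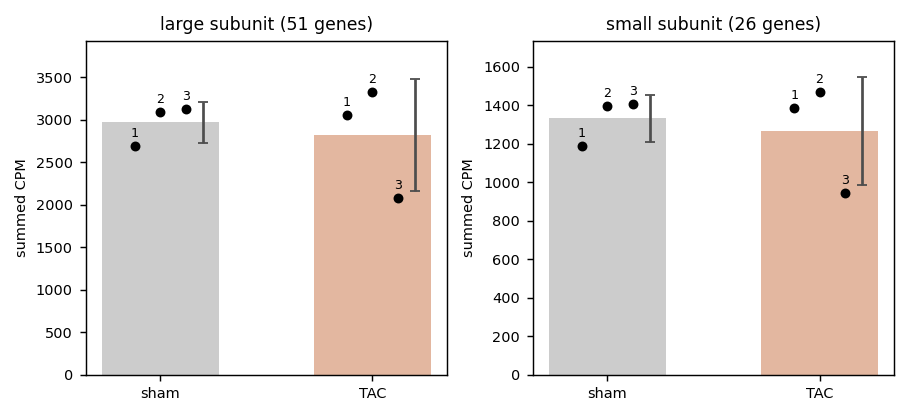
Summed CPM of the large-subunit genes (left) and small-subunit genes (right) by group; bars are means starting at 0, error bars are 1 SD (n = 3 each) and points are libraries, numbered by replicate. TAC replicate 3 is lowest in both panels, at 2078 and 946 CPM, and the other TAC libraries lie within or above the sham range.

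Without TAC replicate 3, 9 of the 78 genes rose in edgeR, against 9.24% of all tested genes, and 1 fell, Mrpl37, against 10.1%. Besides Mrpl50 and Mrpl33 the 9 were Mrpl13, Mrpl21, Mrpl35, Mrpl42, Mrpl47, Mrps9 and Mrps18c. Mrpl13 shows the layout, with 27.0, 28.4 and 28.5 CPM in sham, 41.5 and 43.8 CPM in TAC replicates 1 and 2, and 25.2 CPM in replicate 3. The median log2 fold change became 0.14, against 0.00 over all tested genes, with 62 genes above 0 and 16 below. In this fit 2 TAC libraries remain.

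The fold changes followed the base composition of the transcripts. Across all tested genes the log2 fold change was lower at higher GC content, with a Spearman correlation of -0.51 over 8790 genes, and across the 78 genes it was -0.46, given as a description of genes that share the same libraries. The 26 genes of lowest GC content (41.1% to 48.3%) had a median log2 fold change of 0.13, held both called genes and had 16 values above 0. The 26 of highest GC content (52.7% to 60.6%) had a median of -0.12 and 21 values below 0. TAC replicate 3 was the lowest library in 26 of these 26, in 23 of the middle 26 and in 11 of the lowest 26. The transcripts of Mrpl50 have a GC content of 42.3% and those of Mrpl33 one of 46.9%. All tested genes with 42% to 44% had a median log2 fold change of 0.64 (364 genes), and those with 46% to 48% one of 0.29 (707 genes).

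With the trends of each library over GC content and length removed, no gene passed in either direction in edgeR, against 2.7% of all tested genes higher, 2.31% lower and 5.01% in either direction. At an unadjusted p under 0.05, 1 was higher and 10 were lower, against 12.9% and 12.3% of all tested genes. The log2 fold change was then 0.29 for Mrpl50 (adjusted p = 0.259, edgeR) and 0.23 for Mrpl33 (adjusted p = 0.373, edgeR). Mrpl37 stood at -0.46 (adjusted p = 0.0613, edgeR). The trends were fitted over all tested genes, where the Spearman correlation of log2 fold change with GC content and with length was then 0.00. Within the 78 genes it was 0.32 with GC content (-0.46 before) and -0.45 with length (-0.11 before), so the removal left trends of its own among them. The median of the 78 genes was -0.12, against 0.00 over all tested genes, and 54 were below 0, against 49.6% of all tested genes. TAC replicate 3 remained low, at a median of -0.33 relative to the sham mean, with the other TAC libraries at -0.02 and 0.02. With the trends removed and this library left out, Mrpl13 and Mrps9 were higher, against 6.51% of all tested genes, and Mrpl9, Mrpl37 and Mrpl39 were lower, against 6.68%. The median was then 0.00.

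**Figure D5:**
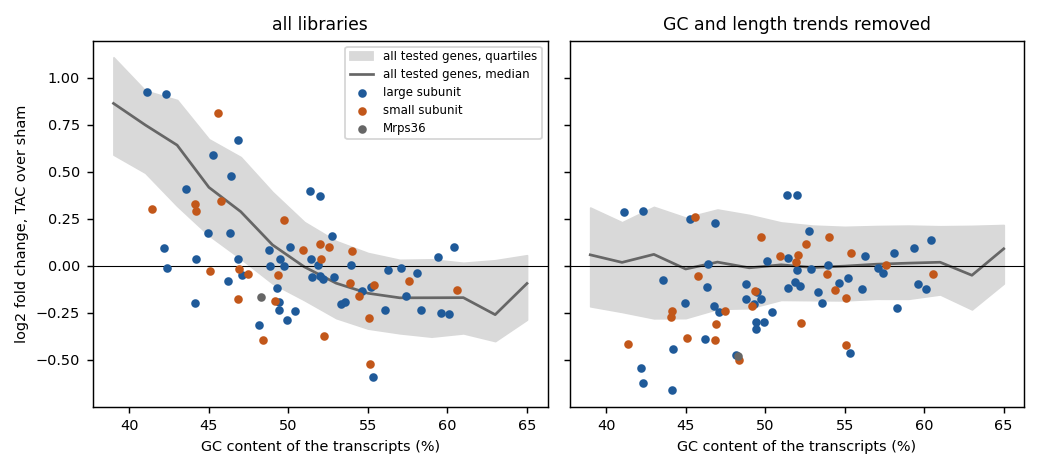
Log2 fold change (TAC over sham, vertical axis) against the GC content of the transcripts in percent (horizontal axis) for the 78 genes (points, by subunit), with all libraries on the left and with GC and length trends removed on the right; the line and band are the median and quartiles of all tested genes. On the left the points are lower at higher GC content, as the line is (Spearman -0.46 and -0.51), and on the right Mrpl50 and Mrpl33 lie at 0.29 and 0.23.

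Other genes of mitochondrial translation were read from lists of related genes. Their counts can be read against the shares of all tested genes given above, 4.71% higher and 2.29% lower in edgeR, 16.2% and 11.9% at an unadjusted p under 0.05, and 11.7% and 7.02% in DESeq2. Of 5 tested ribosomal proteins with other symbols none passed in edgeR, 1 was higher at an unadjusted p under 0.05 and DESeq2 called 1 higher. Aurkaip1, one of the 2 with the highest mean FPKM, was at 96.9 ± 9.66 (sham) and 92.5 ± 23.2 CPM (TAC), and Gadd45gip1, the other, at 77.1 ± 12.4 and 78.5 ± 33.5 CPM (SD, n = 3 each). TAC replicate 3 was again the lowest library, at 66.3 and 40.3 CPM. It was the lowest in 4 of the 5 tested genes, against 26.4% of all tested genes. In the lists that follow it was the lowest in 13 of 23 assembly and modification genes and 6 of 14 in the translation factor list. The counts were 9 of 19 in the synthetase list, 3 of 11 for transcription and DNA maintenance and 1 of 7 for regulators. Of 23 tested factors of ribosome assembly and rRNA modification 1 fell, none rose and the median was -0.24; at an unadjusted p under 0.05, 1 was higher and 6 lower, and DESeq2 called 1 and 3. The gene that fell was Eral1, which encodes a GTPase that binds the RNA of the small subunit. It measured 37.4, 42.9 and 39.4 CPM in sham and 28.5, 24.6 and 23.9 CPM in TAC, with no overlap. Its log2 fold change was -0.64 ± 0.14 (adjusted p = 0.0368, edgeR), and it was still called with GC and length trends removed (-0.52, adjusted p = 0.0431, edgeR). It passed in 9 of 17 alternatives (adjusted p from 0.00103 to 0.156). It did not pass with no FPKM filter, with the replicate block, or on leaving out any 1 library other than TAC replicate 3. The shares of all tested genes called in these fits are given below, after the last list.

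The list of translation factors also holds genes with other roles, Oxa1l, Pdf, Metap1d, Lrpprc and Slirp among them. Of its 14 tested genes 1 fell and none rose, with a median of -0.10. At an unadjusted p under 0.05, 2 were higher and 2 lower, and DESeq2 called 1 and 2. The gene that fell was Oxa1l, whose product inserts newly made proteins into the inner membrane. Its level went from 205 ± 18.6 to 137 ± 10.2 CPM (SD, n = 3 each; -0.58 ± 0.13, adjusted p = 0.0414, edgeR). The list of mitochondrial aminoacyl-tRNA synthetases also holds Gatb, Gatc and Qrsl1, which are not synthetases. Of its 19 tested genes 1 rose and 1 fell. At an unadjusted p under 0.05, 1 was higher and 4 lower, and DESeq2 called 1 and 2. Rars2 rose from 2.80 ± 0.472 to 5.45 ± 0.761 CPM and Vars2 fell from 52.3 ± 1.10 to 36.7 ± 2.22 CPM (SD, n = 3 each, adjusted p = 0.0408 and 0.0463, edgeR). These enzymes load arginine and valine, and the median of the list was -0.20. Of 11 tested genes of mitochondrial transcription and DNA maintenance 2 rose and none fell, with a median of -0.16; at an unadjusted p under 0.05, 3 were higher and 1 lower, and DESeq2 called 3 and 0. They were the transcription factor gene Tfb2m (1.14 ± 0.27, adjusted p = 0.0433, edgeR) and Mterf2 (1.01 ± 0.25, adjusted p = 0.0492, edgeR).

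Among 7 tested regulators of nuclear genes for mitochondrial proteins, Esrra, which encodes estrogen-related receptor alpha, fell from 167 ± 18.2 to 115 ± 5.05 CPM (SD, n = 3 each; -0.54 ± 0.13, adjusted p = 0.0489, edgeR). Of the 12 genes of this list, Nrf1, Gabpa, Gabpb1, Gabpb2 and Esrrg did not reach the minimum FPKM and were not tested. None of the 7 tested genes rose in edgeR. At an unadjusted p under 0.05, 2 were higher and 2 lower, DESeq2 called 2 higher and 1 lower, and with the replicate block 1 was called higher. The median of the list was 0.07. In Eral1, Oxa1l, Vars2 and Esrra every TAC library was below every sham library, which held for 17.1% of all tested genes. These genes were picked by the test on the same values, so the separation adds no support to their calls. Of the 7 called genes of these lists, Eral1 was the one still called once GC and length trends were removed. Oxa1l then stood at -0.48 (adjusted p = 0.0761, edgeR), Vars2 at -0.29, Esrra at -0.31, Rars2 at 0.45, Tfb2m at 0.53 and Mterf2 at 0.41 on the log2 scale. All 7 calls were lost with the replicate block, with no FPKM filter, and without TAC replicate 1, TAC replicate 2, sham replicate 2 or sham replicate 3. Of all tested genes, 1.6% were called higher and 0.48% lower with the replicate block, and 0.684% and 0.512% with no FPKM filter. The shares were 0.375% and 0.205% without TAC replicate 1, and 1.13% and 0.387% without TAC replicate 2. They were 0.102% and 0.0341% without sham replicate 2, and 0.341% and 0.239% without sham replicate 3. Without sham replicate 1, where 3.35% and 0.75% were called, 6 of the 7 calls were lost and Tfb2m remained called.

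Many of the genes share a start region with a gene on the other strand. A start on the opposite strand lay within 1000 bases for 37 of the 78 genes (47.4%), against 2027 of 8795 tested genes (23.05%). These counts hold pairs that read away from each other and pairs that overlap at their starts. Among the 21 such pairs with both genes tested, 9 had log2 fold changes of opposite sign, and no partner was called in edgeR. Mrps11 and Mrpl46, a small- and a large-subunit gene, overlap at their starts by 412 bases on chromosome 7. The ratio of Mrps11 to Mrpl46 CPM was 1.998, 2.61 and 1.99 in sham and 1.35, 1.26 and 1.59 in TAC. The groups did not overlap in this pair, which was picked after its values were seen. The ratio also separated the groups in Mrpl32 and Psma2, Mrpl37 and Cyb5rl, Mrpl47 and Ndufb5, Mrps12 and Sars2, and Mrps27 and Ptcd2. In the other pairs the groups overlapped, and the share over pairs of all genes was not computed. The bases exonic in both genes were 12.2% of the exonic bases of Mrpl46 and 7.965% of those of Mrps11. No source used here says if reads were counted by strand, so reads in these shared bases could be divided either way.
Overlap with other records limits some values further. More than 20% of the exonic bases lay in another record on the same strand in 3 genes (Mrpl53, Mrps18c and Mrps34) and on the other strand in 7. The largest of these overlaps were 88.0% for Mrpl53, 69.8% for Mrps25 and 63.4% for Mrps34. The called genes Mrpl50 and Mrpl33 are not among them.

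Promoter motifs did not separate the fold changes clearly. The median log2 fold change was 0.02 in the 26 genes with the ETS motif and -0.05 in the 43 matched genes without it. It was -0.06 in the 13 with the NRF1 motif and -0.01 in the 56 without, and -0.24 in the 8 with the YY1 motif and 0.00 in the 61 without. Of the 2 called genes, 1 held the ETS motif, and neither held the NRF1 or the YY1 motif. These medians are descriptions, with no test.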

How the data were processed

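Per the labels' protocols, oligo(dT)-selected RNA was made into libraries by a dUTP method. The submitters' processing notes list StringTie 1.3.4d, HISAT2 2.0.4 and cutadapt 1.9, and build GRCm38. The authors deposited FPKM and estimated counts per gene, per the file headers. The estimated counts deposited were whole numbers. In single-transcript genes with few counts, 93.0% to 98.3% of a library's values were exactly the product of FPKM, length and a fitted library factor after rounding up. They were therefore used as estimates from coverage, whose error is larger than counting error.

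Samples were grouped by label. Genes whose mean FPKM reached 1 were compared with edgeR 4.0.16 (R 4.3.3; TMM scaling, glmQLFit and glmQLFTest) and Benjamini-Hochberg adjustment over 8795 genes, called at an adjusted p under 0.05. CPM are TMM-scaled, and each SE is the log2 fold change over the square root of F. GC content, length and overlap came from GENCODE M21, in which 69 of the 78 genes had the same coordinates. GC content and transcript length were taken over its basic transcripts, or over all transcripts of a gene that had no basic one. Exonic bases and overlap were taken over all transcripts. Library trends over GC content and length were smoothed by lowess (span 0.3) and removed as offsets. Alternatives were DESeq2 1.42.0, limma 3.58.1 on log2(FPKM + 1) and log2(FPKM + 0.1), other scalings and filters, a replicate block, and leaving out each library.

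The genes, lists and tests were chosen with earlier results of these data known. Genes named were all called ones, the 3 highest by mean FPKM in each subunit, the 4 highest and 4 lowest log2 fold changes among genes whose groups did not overlap, a panel of 10 and up to 4 called genes a list. Genes called under an alternative only, and extremes of other measures, were named after their values were seen.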

Additional observations from a re-analysis of the deposited data

How the results depend on the processing

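The count of 2 genes higher and 0 lower was the same with RLE or upper quartile scaling and without the mitochondrial chromosome. DESeq2 gave 5 higher and 1 lower (11.7% and 7.02% of all tested genes), and limma gave 1 and 1 with a pseudocount of 1 (1.98% and 3.84%) or 0.1 (1.93% and 3.82%). No gene was higher with GC and length trends removed (2.7% of all tested genes) or with no FPKM filter (0.684%). With a mean FPKM of 5 or more, 67 genes were tested and none was higher (3.19%), but Mrpl50 and Mrpl33 lie under that minimum and were not tested. Removing the trends and leaving out TAC replicate 3, chosen after seeing the data, gave 2 higher and 3 lower. Leaving out 1 library at a time gave 0 to 9 higher and 0 to 1 lower, where 0.102% to 9.24% and 0.0341% to 10.1% of all tested genes were called. The 9 came without TAC replicate 3, 1 (Mrpl1) without sham replicate 1 and 0 without any other single library. The median log2 fold change ranged from -0.17 to 0.14 over these. With limma on log2(FPKM + 1) it was -0.18, where the median of all genes was -0.13.

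Sham and TAC share replicate numbers. Same-numbered samples did not deviate together (r of -0.09, 0.13 and -0.04 over 8795 genes), and sham replicate 1 correlated best with TAC replicate 3 (0.23). Deviations from a mean of 3 libraries sum to 0 within a group, so these values cannot tell if the numbers pair the samples. With the replicate block, 0 genes were higher and 0 lower (1.6% and 0.477% of all tested genes), also with trends removed (1.15% and 0.523%), and the median was -0.05.

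For 23 named genes, 330 of 410 values under an alternative kept their sign and call. Only Mrpl50 and Mrpl33 of these genes were called with all libraries, so for the rest a kept call means staying uncalled. The 22 values no longer past the threshold all belonged to Mrpl50 and Mrpl33, which passed in 7 and 5 of 17 alternatives. Another 11 values passed it newly and 47 had the other sign but were called in neither. No call reversed. The lowest level of any of the 78 genes was 2.84 CPM (Mrpl1, sham replicate 2), and since the counts are coverage estimates no counting interval is given.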
